A study of Homo sapiens with 12 samples.

Results

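Vehicle-treated HCC70 cells were compared with vehicle-treated MDA-MB-231 cells, 3 arrays of each, which are 6 of the 12 arrays of a study of the BET bromodomain inhibitor JQ1. The arrays were chosen by their labels as control arrays of one line or the other, with no measured value used. Both lines had been kept for 72 hours with 0.1% DMSO, the solvent of JQ1, and the other 6 arrays hold the same lines after 72 hours with 500 nM JQ1, again 3 of each. Total RNA (150 ng per sample) had been labelled with biotin and hybridised to Human Gene 2.0 ST arrays, which carry probes along the whole length of each transcript. HCC70 and MDA-MB-231 are human cell lines from triple-negative breast cancers, tumours diagnosed by the lack of oestrogen receptor, progesterone receptor and HER2 amplification. Each cell state is represented by 1 line, so the differences below belong to these lines and cannot be assigned to a tumour class. Nothing in the labels states that replicate arrays came from separate cultures. Every p-value and standard error of a difference below rests on a spread among replicate arrays, pooled over all 4 groups of 3, JQ1 included. That spread may be technical.

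HCC70 is classed as basal-like and grows as an epithelium, and MDA-MB-231 is a mesenchymal-like line of the claudin-low kind. Epithelial cells are held together by tight junctions, adherens junctions and desmosomes, are filled with keratin filaments, and depend on transcription factors of the grainyhead family and on the ESRP splicing regulators. In the epithelial to mesenchymal transition, driven by factors of the SNAIL, ZEB and TWIST families, these genes are repressed while vimentin, fibronectin and other motility genes come on. SNAIL and ZEB factors repress through CACCTG sites. The miR-200 microRNAs and the ZEB factors repress each other, which makes the change of state switch-like.

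Values are log2 signals, so a difference of 1 is a doubling, and all differences are HCC70 minus MDA-MB-231 with the standard error (SE) of the limma fit. A gene was called when its limma p, adjusted by Benjamini-Hochberg over the 14884 genes tested, was under 0.05. An exact permutation test of 3 arrays against 3 cannot go below 0.1, so the calls rest on the spread pooled by limma. Where the lower side of a difference lies under the lower quartile of that group's gene means (4.81 in HCC70, 4.78 in MDA-MB-231), the fold is written as "at least", because a signal that low may be background. The signal of a gene depends on its own probes, so a level is never set against that of another gene. In bulk RNA, fewer cells with a transcript and less of it per cell cannot be told apart.

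The arrays separated by line. Over all genes tested the correlation was 0.994 to 0.995 among the HCC70 arrays, 0.990 to 0.992 among the MDA-MB-231 arrays and 0.891 to 0.896 between the lines, and the first principal component held 91.1% of the variance. The array medians lay between 6.22 and 6.26. The third MDA-MB-231 array stood apart from the other 2 on the second component, which held 3.14% of the variance. Without that array 7012 genes were called, against 7000 with it, and over all 12 ways to leave out 1 array the count lay between 6383 and 7100. Line labels could be checked against defining genes: EPCAM, GRHL2 and KRT5 were higher in all 3 HCC70 arrays, and VIM, ZEB1 and AXL were higher in all 3 MDA-MB-231 arrays. ESR1, the oestrogen receptor, had overlapping signals of 4.98, 4.98 and 5.32 on the HCC70 arrays and 4.79, 4.87 and 5.03 on the MDA-MB-231 arrays, a difference of 0.20 ± 0.16 (adjusted p = 0.36) with a 95% confidence interval of -0.15 to 0.54. PGR lay near 3.93 in HCC70 and 3.64 in MDA-MB-231, below the lower quartile of both.

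Nearly as many genes passed the test in one direction as in the other. Of the 14884 genes, 7000 (47.0%) were called, 3540 (23.8%) higher in HCC70 and 3460 (23.2%) lower, and the median of all differences was 0.03. A difference of at least 1 was called for 2204 genes (14.8%), 1136 higher (7.63%) and 1068 lower (7.18%). At a size of at least 4 there were 72 higher and 31 lower, and at 6 there were 15 and 5. The shares of 23.8% higher and 23.2% lower are the background for every list count below. They take in dim genes, and 3277 of the 14884 lay below the lower quartile in both lines. When only genes above the median level were tested, 2721 were called higher and 2679 lower, so most calls lay in brighter genes. A list with few dim genes can therefore exceed both shares without standing out from other bright genes.

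The 15 genes highest in HCC70 included secreted, surface and junction proteins of epithelia. GLYATL2, a glycine N-acyltransferase that makes N-acyl glycines, measured 11.50, 11.66 and 11.59 on the HCC70 arrays and 3.45, 3.21 and 3.30 on the MDA-MB-231 arrays. That is at least 308-fold higher, at 8.27 ± 0.18 (adjusted p = 2.7e-12). SLPI, a protease inhibitor of mucosal secretions, measured 12.57, 12.76 and 12.65 on the HCC70 arrays and 4.51, 3.97 and 4.76 on the MDA-MB-231 arrays, and its difference was 8.25 ± 0.16 (adjusted p = 9.8e-13). RARRES1, a retinoid-induced membrane protein, differed by 7.85 ± 0.18 (adjusted p = 3.6e-12) and CEACAM6, a cell-surface adhesion molecule of epithelia, by 7.04 ± 0.26 (adjusted p = 2.6e-10). For all 4 genes the HCC70 arrays lay above 10.9 and the MDA-MB-231 arrays below 4.8. Lack of overlap was part of the rule that picked the 15 genes, and 55.2% of all genes had it.

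The desmosomal cadherins DSC2 and DSC3 and the splicing regulator ESRP1 stood among the same 15 genes. VTCN1, a B7-family ligand that restrains T cells, was at least 98.6-fold higher, from 4.55 ± 0.43 (SD) in MDA-MB-231 to 11.17 ± 0.09 in HCC70. MGP, a matrix protein that blocks calcification, differed by 6.62 ± 0.18 and MXRA5, a secreted matrix-remodelling protein, by 6.85 ± 0.16. PTGFRN, an immunoglobulin-domain partner of tetraspanins, NETO2, an auxiliary subunit of kainate receptors, and PALMD, a protein of the paralemmin family, were higher by 6.50, 6.48 and 6.17. TDRD1, a Tudor-domain protein of the germ-line piRNA pathway, measured 10.09, 9.82 and 9.90 on the HCC70 arrays and 3.23, 3.48 and 3.82 on the MDA-MB-231 arrays. CD109, a surface protein that binds TGF-beta, was higher by 6.08 ± 0.12 on its brightest transcript cluster, but by 0.40 ± 0.12 (adjusted p = 0.016 over all clusters) on its other one. The adjusted p of these 15 genes ran up to 2.6e-10.

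The 15 lowest genes included receptors, secreted proteins and a subunit of the AP-1 factor. ENPP1, an ectoenzyme that makes pyrophosphate and degrades cyclic GMP-AMP, measured 3.22, 3.60 and 3.52 on the HCC70 arrays and 10.54, 10.61 and 10.66 on the MDA-MB-231 arrays, at least 143-fold lower in HCC70. AXL, the receptor tyrosine kinase for GAS6, measured 5.96, 5.55 and 5.59 on the HCC70 arrays and 12.52, 12.66 and 12.47 on the MDA-MB-231 arrays, a difference of -6.86 ± 0.11 (adjusted p = 5.1e-13) or 116-fold. EDIL3, a secreted integrin ligand, and IGFBP7, a secreted insulin-like growth factor binding protein, were lower by 6.62 ± 0.18 and 6.57 ± 0.12 on the log2 scale. The remaining ones included EMP3, a tetraspan membrane protein (-6.01 ± 0.08), CEMIP, which degrades hyaluronan (-5.60 ± 0.14), SRGN, the core protein of serglycin (-5.04 ± 0.17), PDE7B, a cyclic AMP phosphodiesterase (-4.86 ± 0.14), and ADGRF5, an adhesion G protein-coupled receptor (-4.78 ± 0.22). FOSL1, the AP-1 subunit FRA1, measured 5.60, 6.13 and 5.58 on the HCC70 arrays and 10.63, 10.51 and 10.50 on the MDA-MB-231 arrays, 27.4-fold lower. ECI2, an enoyl-CoA isomerase of fatty acid breakdown, was lower by 4.73 ± 0.11, TCEAL9 by 5.25 ± 0.15 and the pseudogene RPL23AP32 by 4.89 ± 0.16, where the probes may also read the parent gene or other copies. The MIR221 gene and the YAP target ANKRD1 complete the 15 and are described with their groups.

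**Figure D1:**
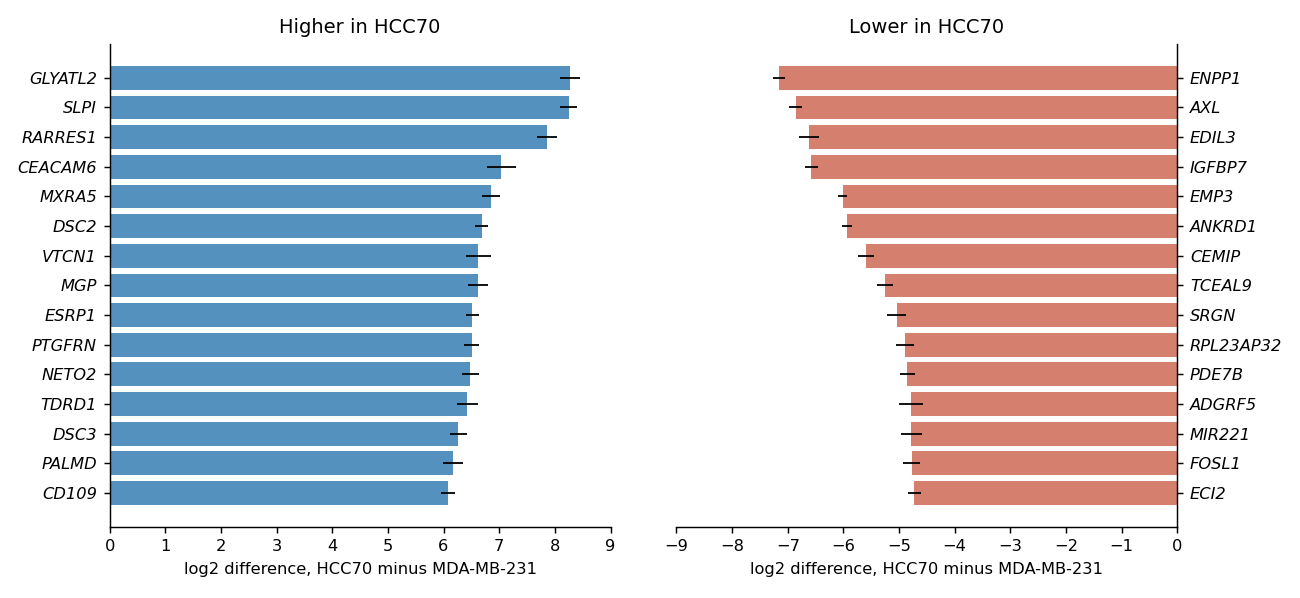
The 15 genes highest and the 15 genes lowest in HCC70, as log2 differences between the means of 3 vehicle arrays per line (x axis), with bars from 0 and error bars of 1 SE. The differences run from 6.08 to 8.27 on the left and from -4.73 to -7.16 on the right.

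Genes of the epithelial surface and of cell junctions were higher in HCC70 in most cases. Of 7 measured genes of the epithelial surface and adherens junction, 6 were higher and 1 was lower, with a median of 2.66 against 0.03 for all genes. ST14, the matriptase that activates proteases at the epithelial surface, measured 9.50, 9.68 and 9.62 on the HCC70 arrays and 5.64, 5.29 and 5.73 on the MDA-MB-231 arrays, 16.5-fold higher. EPCAM, the epithelial cell adhesion molecule, measured 10.22, 10.46 and 10.25 on the HCC70 arrays and 7.29, 7.53 and 7.41 on the MDA-MB-231 arrays, which is 2.90 ± 0.12 (adjusted p = 8.6e-10). NECTIN4 and BSPRY differed by 2.66 ± 0.15 and 2.56 ± 0.14. NECTIN2, a nectin of many cell types, was the lower one at -0.56 ± 0.10 (adjusted p = 3.2e-04).

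Tight junctions seal the space between epithelial cells, and 15 of the 19 measured genes of tight junctions and polarity were higher in HCC70, 1 was lower and 3 were not called (median 1.68). CLDN1, a barrier claudin, measured 10.17, 10.08 and 10.22 on the HCC70 arrays and 5.66, 5.76 and 5.38 on the MDA-MB-231 arrays, 23.5-fold higher. CLDN7 differed by 3.49 ± 0.19 (adjusted p = 8.2e-09), CLDN3 by 1.68 ± 0.09 (adjusted p = 1.1e-08) and CLDN4 by 1.01 ± 0.14 (adjusted p = 6.1e-05). The 3 claudins used to define claudin-low tumours were thus all lower in MDA-MB-231, by unequal amounts. Occludin (OCLN) measured 9.67, 9.70 and 9.67 on the HCC70 arrays and 6.48, 6.69 and 6.38 on the MDA-MB-231 arrays, 8.97-fold higher. MARVELD2, the tricellulin of corners between cells, and PATJ, a scaffold of the Crumbs polarity complex, were higher by 2.84 ± 0.12 and 1.83 ± 0.09. PARD6B, a subunit of the PAR polarity complex, went the other way at -1.75 ± 0.10 (adjusted p = 1.4e-08).

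Desmosomes anchor keratin filaments at the cell border. Of their 12 measured genes, 10 were higher in HCC70, none was lower and 2 were not called (median 1.51). The cadherin DSC2 measured 11.35, 11.40 and 11.40 on the HCC70 arrays and 4.86, 4.45 and 4.79 on the MDA-MB-231 arrays, at least 103-fold higher, and DSC3 measured 10.51, 10.41 and 10.34 on the HCC70 arrays and 4.37, 3.97 and 4.12 on the MDA-MB-231 arrays, at least 76.7-fold higher. DSG3, the cadherin of basal keratinocytes, differed by 3.84 ± 0.14 (adjusted p = 2.4e-10), and DSG2, the cadherin of simple epithelia, by 1.79 ± 0.08 (adjusted p = 7.1e-10). DSG1 and DSG4 lay below the lower quartile in both lines, with differences of 0.13 ± 0.10 and 0.17 ± 0.10 that did not pass the test. Hemidesmosomes fix cells to the basement membrane. Of 9 listed genes of hemidesmosomes and laminin-332 only 3 were measured, and these showed the opposite sign. No laminin-332 gene and none of 18 listed integrins was measured, so these genes do not stand for the whole structure. DST, PLEC and CD151 were lower in HCC70 at -0.56 ± 0.07, -0.56 ± 0.09 and -0.49 ± 0.09, all under 1 in size. Counts of 0 given here for a direction, in the desmosome, hemidesmosome, epithelial regulator, luminal, glycolysis and endothelial lists, were also 0 at an unadjusted limma p under 0.05.

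Among 15 measured keratins, 8 were higher in HCC70, 2 were lower and 5 were not called. The basal keratin KRT5 measured 8.93, 8.50 and 8.15 on the HCC70 arrays and 5.58, 3.68 and 4.76 on the MDA-MB-231 arrays, and its MDA-MB-231 arrays were spread more widely than its HCC70 arrays. Its difference was 3.86 ± 0.39 (adjusted p = 2.3e-06). KRT14, the partner of KRT5 in basal cells, differed by 1.74 ± 0.23 (adjusted p = 2.8e-05). KRT4 and KRT23 were higher by 3.91 ± 0.23 and 3.11 ± 0.23, KRT15 by 2.29 ± 0.14, and the luminal keratin KRT19 by 1.74 ± 0.08 (adjusted p = 1.3e-09). The simple-epithelial pair did not follow. KRT8 measured 7.02, 7.14 and 7.28 on the HCC70 arrays and 7.26, 7.40 and 7.54 on the MDA-MB-231 arrays, with overlapping arrays and an adjusted p of 0.076, though it passed the test without the first MDA-MB-231 array (-0.32). KRT18 was slightly lower in HCC70 at -0.28 ± 0.09 (adjusted p = 0.023), a call that was lost under 4 of the alternatives tried. Both keratins have many near-identical pseudogenes, so their probes may read other copies. KRT80 was lower in HCC70 by 1.01 ± 0.09 (adjusted p = 5.0e-07).

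Regulators of epithelial identity showed the same direction. Of 14 measured epithelial transcription and splicing factors, 11 were higher in HCC70, none was lower and 3 were not called (median 1.50), with 1 lower when only the 6 vehicle arrays were fitted. ESRP1, which directs epithelial splice choices, measured 11.18, 11.06 and 11.01 on the HCC70 arrays and 4.30, 4.67 and 4.71 on the MDA-MB-231 arrays, at least 91.7-fold higher (adjusted p = 5.5e-13), and its paralogue ESRP2 differed by 2.09 ± 0.11 (adjusted p = 5.9e-09). GRHL2, the grainyhead factor that maintains junction genes, measured 9.86, 9.91 and 9.96 on the HCC70 arrays and 4.70, 4.61 and 4.86 on the MDA-MB-231 arrays, at least 36.4-fold higher. GRHL1 and TFAP2C differed by 3.40 ± 0.13 and 2.32 ± 0.09. For ESRP1 and GRHL2 the MDA-MB-231 signals lay under the lower quartile, whereas ESRP2 measured 6.92, 6.80 and 6.78 there, above the array medians.

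The promoters of these genes could be read for the letters CACCTG or CAGGTG, the 2 strands of the E-box bound by SNAIL and ZEB factors. The window ran from 250 bases before to 50 bases after each start in RefSeq (GRCh38.p14). Of the 42 genes called higher in the epithelial surface, tight junction, desmosome and epithelial regulator lists, 27 had a promoter in the table and 12 of these (44.4%) held the letters, against 5625 of 27305 promoters (20.6%) overall. A pair of junction genes with several matches is shown in 250 bases before the start, with each match in capitals. CRB3, a Crumbs polarity protein picked for its 5 matches, was higher in HCC70 by 0.85 ± 0.12 (adjusted p = 6.5e-05). PATJ has 3 matches in its window, 2 of them in the stretch printed. The lists hold genes of the kind that SNAIL and ZEB factors are known to repress, so a share above that of all promoters may be built in. Members not called higher were not counted, so no comparison by direction was made within these lists. The letters also occur in the promoter of ANKRD1, which was lower in HCC70. A match describes letters and not a bound site.
CRB3 (chr19:6464021-6464270, + strand): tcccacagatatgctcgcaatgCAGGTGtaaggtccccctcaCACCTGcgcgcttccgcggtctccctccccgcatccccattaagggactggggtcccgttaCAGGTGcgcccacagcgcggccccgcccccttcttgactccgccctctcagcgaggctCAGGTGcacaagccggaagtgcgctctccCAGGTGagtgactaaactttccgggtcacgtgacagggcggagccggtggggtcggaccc
PATJ (chr1:61742230-61742479, + strand): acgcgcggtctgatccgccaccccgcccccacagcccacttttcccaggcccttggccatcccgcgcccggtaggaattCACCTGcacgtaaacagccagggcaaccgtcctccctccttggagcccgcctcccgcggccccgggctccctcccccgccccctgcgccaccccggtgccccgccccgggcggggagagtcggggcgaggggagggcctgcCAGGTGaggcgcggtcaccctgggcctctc

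HCC70 also carried more RNA of luminal and progenitor genes. Of 17 measured genes of the luminal lineage and hormone receptors, 12 were higher in HCC70, none was lower and 5 were not called, with a median of 0.51. KIT, the stem cell factor receptor found on luminal progenitors, measured 9.43, 9.48 and 9.41 on the HCC70 arrays and 4.45, 4.68 and 4.996 on the MDA-MB-231 arrays, at least 26.6-fold higher. AGR2, a disulphide isomerase of secretory cells, and FOXA1, the pioneer factor of luminal cells, differed by 4.30 ± 0.13 (adjusted p = 5.5e-11) and 3.11 ± 0.12 (adjusted p = 3.5e-10). ERBB3, the neuregulin receptor, differed by 3.02 ± 0.12 (adjusted p = 3.1e-10), and GATA3, the main luminal transcription factor, measured 9.42, 9.42 and 9.41 on the HCC70 arrays and 8.22, 8.21 and 8.26 on the MDA-MB-231 arrays, a difference of 1.19 ± 0.15 (adjusted p = 1.9e-05). The call for PGR (0.29 ± 0.11, adjusted p = 0.042) was lost under 10 of the alternatives and concerns signals below the lower quartile. CD24, a mucin-like surface protein, measured 11.88, 11.96 and 11.88 on the HCC70 arrays and 6.07, 6.35 and 5.61 on the MDA-MB-231 arrays, 59.7-fold higher, while CD44, the hyaluronan receptor, was lower in HCC70 at -1.26 ± 0.07 (adjusted p = 1.5e-08). A CD44-high, CD24-low surface is the classic profile of mesenchymal-like breast cancer cells.

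**Figure D2:**
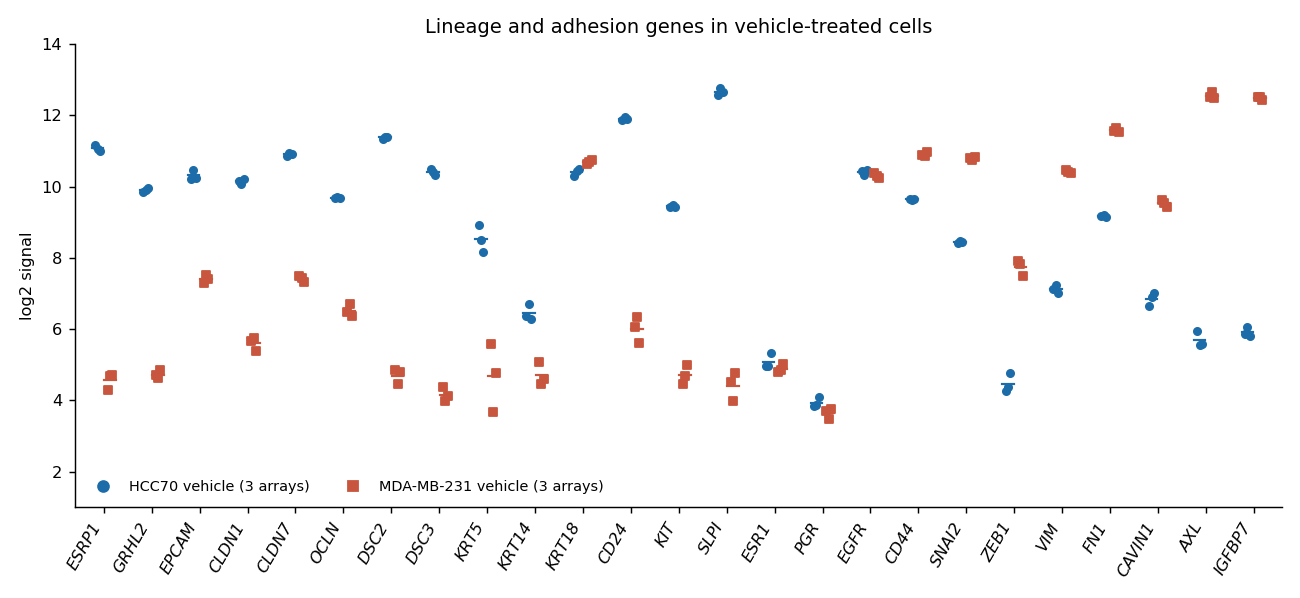
Log2 signal (y axis) of lineage and adhesion genes on each vehicle array, with 3 circles for HCC70, 3 squares for MDA-MB-231 and a short line at each mean. From ESRP1 to SLPI the HCC70 arrays lie above the MDA-MB-231 arrays except at KRT18, the arrays of ESR1 and EGFR overlap, and from CD44 to IGFBP7 the MDA-MB-231 arrays lie above.

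The factors that drive the epithelial to mesenchymal transition did not move as 1 group. Of 14 measured, 5 were lower in HCC70, 3 were higher and 6 were not called. Among all genes, 23.2% were lower and 23.8% were higher. ZEB1 measured 4.27, 4.38 and 4.77 on the HCC70 arrays and 7.90, 7.83 and 7.49 on the MDA-MB-231 arrays, at least 9.64-fold lower in HCC70 (adjusted p = 4.6e-09). SNAI2, the SLUG protein, measured 8.42, 8.48 and 8.45 on the HCC70 arrays and 10.79, 10.74 and 10.83 on the MDA-MB-231 arrays, so it was 5.04-fold lower but still above the array medians in HCC70. HMGA2, a chromatin protein upstream of SNAIL, and FOXQ1 were lower by 3.22 ± 0.17 and 1.45 ± 0.13. ZEB2 lay at the lower quartile in HCC70, with a difference of -1.08 ± 0.12 (adjusted p = 8.4e-06). SNAI1 was higher in HCC70 at 0.60 ± 0.12 (adjusted p = 7.4e-04), and KLF8, a Krueppel-like repressor, measured 7.66, 7.62 and 7.78 on the HCC70 arrays and 4.45, 4.92 and 5.53 on the MDA-MB-231 arrays, which is 6.61-fold higher. TWIST1 lay below the lower quartile on all 6 arrays and did not differ beyond its spread (-0.06 ± 0.15), and the call for TWIST2 (0.38 ± 0.15, adjusted p = 0.048) was lost under 13 alternatives.

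Structural genes of mesenchymal cells were mixed. Of 15 measured genes of the mesenchymal cytoskeleton and adhesion, 8 were lower in HCC70, 4 were higher and 3 were not called (median -0.19). Vimentin (VIM), the intermediate filament of mesenchymal cells, measured 7.12, 7.25 and 7.02 on the HCC70 arrays and 10.47, 10.41 and 10.38 on the MDA-MB-231 arrays, 9.78-fold lower. L1CAM, a neural adhesion molecule, measured 5.95, 5.83 and 6.01 on the HCC70 arrays and 10.65, 10.67 and 10.57 on the MDA-MB-231 arrays, 26-fold lower, and caldesmon (CALD1) differed by -2.06 ± 0.12 (adjusted p = 1.6e-08). The tropomyosins TPM1 and TPM2 were higher in HCC70 by 1.24 ± 0.08 and 0.88 ± 0.11, as were the TGF-beta co-receptor ENG (1.34 ± 0.12) and the adhesion molecule NCAM1 (0.62 ± 0.13).

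In the extracellular matrix list, 8 of 19 measured genes were lower in HCC70, 2 were higher and 9 were not called. Thrombospondin 1 (THBS1), an adhesive glycoprotein, measured 9.14, 9.07 and 9.15 on the HCC70 arrays and 13.15, 13.10 and 13.11 on the MDA-MB-231 arrays, 16-fold lower. Fibronectin (FN1) measured 9.18, 9.21 and 9.14 on the HCC70 arrays and 11.57, 11.65 and 11.52 on the MDA-MB-231 arrays, 5.29-fold lower, and fibrillin 1 (FBN1) and the collagen cross-linker LOXL2 differed by -2.65 ± 0.09 (adjusted p = 1.2e-10) and -3.50 ± 0.15 (adjusted p = 9.0e-10). Tenascin C (TNC) ran against the list at 9.74, 9.90 and 9.87 on the HCC70 arrays and 6.79, 6.52 and 6.53 on the MDA-MB-231 arrays, 9.36-fold higher in HCC70, and the proteoglycan BGN was higher by 1.30 ± 0.14.

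Proteases and their inhibitors differed in both directions. Of 20 measured, 7 were higher in HCC70, 6 were lower and 7 were not called. The kallikreins KLK5 and KLK7, which shed the outer layer of stratified epithelium, were higher by 4.89 ± 0.17 (adjusted p = 1.7e-10) and 3.11 ± 0.15 (adjusted p = 3.2e-09). KLK5 measured 10.82, 10.79 and 10.95 on the HCC70 arrays and 5.90, 5.93 and 6.06 on the MDA-MB-231 arrays. The tissue inhibitors TIMP1, TIMP2 and TIMP3 were named because they were among the lower genes of the list with the smallest p. Their shared direction follows from that rule. TIMP1 differed by -3.11 ± 0.10 (adjusted p = 8.4e-11), TIMP2 by -2.56 ± 0.09 (adjusted p = 9.7e-11) and TIMP3 by -3.63 ± 0.13 (adjusted p = 1.7e-10). The dimmer cluster of TIMP3 gave -2.34 ± 0.20 (adjusted p = 5.6e-07 over all clusters). The membrane-bound proteases split, with MMP14 lower at -1.26 ± 0.09 and MMP15 higher at 1.91 ± 0.12, and ADAM12 was higher at 1.06 ± 0.09. Caveolar coat genes were lower in HCC70 in 4 of 7 cases, higher in 2 and not called in 1 (median -1.65). CAVIN1 measured 6.65, 6.91 and 7.0 on the HCC70 arrays and 9.62, 9.55 and 9.44 on the MDA-MB-231 arrays, 6.4-fold lower, CAVIN2 was 9.11-fold lower, and the neck protein EHD2 differed by -1.65 ± 0.09 (adjusted p = 9.5e-09). PACSIN2 and PACSIN3, which bend membranes at caveolae and elsewhere, were the higher ones at 0.54 ± 0.08 and 0.64 ± 0.13.

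Receptor tyrosine kinases were divided between the lines, with 10 of 25 higher in HCC70, 9 lower and 6 not called, against 23.8% and 23.2% of all genes. Besides AXL, MDA-MB-231 had more of the related kinase MERTK (-1.50 ± 0.11 (adjusted p = 1.2e-07)), of the insulin receptor INSR (-3.22 ± 0.10 (adjusted p = 5.4e-11)) and of ROR1, a Wnt5a receptor (-1.28 ± 0.08 (adjusted p = 5.0e-08)). INSR measured 5.099, 5.23 and 5.28 on the HCC70 arrays and 8.54, 8.44 and 8.28 on the MDA-MB-231 arrays. KIT and ERBB3, kinases of this class held in the luminal list, are described above. Within the kinase list the higher ones with the smallest p were Eph and collagen receptors: EPHB6 at 2.37 ± 0.14, EPHA1 at 1.43 ± 0.10, EPHB4 at 0.94 ± 0.10 and DDR1 at 0.81 ± 0.08. EGFR, high in many triple-negative tumours, measured 10.43, 10.34 and 10.47 on the HCC70 arrays and 10.37, 10.29 and 10.24 on the MDA-MB-231 arrays. The arrays overlapped, and the difference of 0.11 ± 0.08 had a 95% confidence interval of -0.06 to 0.27 (adjusted p = 0.28).

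Ligands and binding proteins of growth factors split as well, 10 of 27 higher, 11 lower and 6 not called. The EGF family ligands went in both directions. EREG, epiregulin, measured 5.89, 5.88 and 5.64 on the HCC70 arrays and 9.47, 9.29 and 9.12 on the MDA-MB-231 arrays, 11.2-fold lower in HCC70, HBEGF was 4.89-fold lower, and EPGN, epigen, measured 8.49, 8.50 and 8.50 on the HCC70 arrays and 4.93, 4.27 and 3.93 on the MDA-MB-231 arrays, at least 17.4-fold higher. GAS6, the ligand of AXL, was named after its value had been seen and was lower by 3.53 ± 0.18 (adjusted p = 3.9e-09), so that receptor and ligand both had the higher signal in MDA-MB-231. Binding proteins of insulin-like growth factors differed in both directions. IGFBP7 and IGFBP4 were lower in HCC70 (-6.57 ± 0.12 and -3.15 ± 0.13), and IGFBP3 and IGFBP5 were higher (4.18 ± 0.18 and 2.35 ± 0.11). IGFBP3 measured 10.19, 10.38 and 10.35 on the HCC70 arrays and 6.45, 5.98 and 5.96 on the MDA-MB-231 arrays. PDGFD, a platelet-derived growth factor, was higher by 2.48 ± 0.14.

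The ERK pathway carries signals from growth factor receptors to the nucleus. A list of 10 ERK output genes, feedback phosphatases, Sprouty proteins and ETS factors that rise when ERK is active, was added after the values had been seen. Of 9 measured, 8 were lower in HCC70 and 1 was higher (median -1.70), and since the list was chosen late this count is a description. DUSP6, a phosphatase that switches ERK off, measured 5.77, 5.74 and 5.77 on the HCC70 arrays and 9.68, 9.81 and 9.72 on the MDA-MB-231 arrays, 15.7-fold lower. DUSP4 measured 5.40, 5.55 and 6.01 on the HCC70 arrays and 9.49, 9.61 and 9.18 on the MDA-MB-231 arrays, 13.7-fold lower. SPRY4, a feedback inhibitor, and cyclin D1 (CCND1) differed by -3.19 ± 0.17 (adjusted p = 8.0e-09) and -1.60 ± 0.09 (adjusted p = 8.3e-09), and EPHA4 was the higher gene at 0.51 ± 0.14 (adjusted p = 0.009). ERK activity was not measured.

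YAP and its paralogue TAZ act with TEAD factors on genes of spreading, flat cells and are held back by the Hippo pathway, of which NF2 is an upstream activator. Of 16 measured genes of the YAP and TEAD list, 9 were lower in HCC70, 5 were higher and 2 were not called (median -0.33). ANKRD1 measured 4.63, 4.70 and 4.66 on the HCC70 arrays and 10.53, 10.53 and 10.74 on the MDA-MB-231 arrays, at least 61.1-fold lower. CCN2, a secreted matricellular protein, measured 6.66, 6.33 and 5.87 on the HCC70 arrays and 9.79, 9.56 and 9.62 on the MDA-MB-231 arrays, 10.4-fold lower, although its dimmer cluster gave -1.57 ± 0.22 (adjusted p = 4.9e-05 over all clusters). AJUBA and CRIM1 differed by -2.57 ± 0.10 and -1.80 ± 0.08. The factors themselves went in both directions. WWTR1, which encodes TAZ, was higher in HCC70 at 1.04 ± 0.09 (adjusted p = 5.6e-07) and TEAD2 at 2.11 ± 0.26 (adjusted p = 1.3e-05), and the matricellular CCN3 and the target ARHGAP29 were higher too (2.13 ± 0.16 and 0.46 ± 0.08). YAP1, named because it carries the motif below, was lower by 0.23 ± 0.09 (adjusted p = 0.043), a call lost under 10 alternatives. NF2 measured 9.29, 9.21 and 9.24 on the HCC70 arrays and 6.91, 7.05 and 6.90 on the MDA-MB-231 arrays, 4.91-fold higher in HCC70.

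GGAATG and its complement CATTCC are the core letters of TEAD sites. They occurred in the 300-base promoter window of 3 of the 7 matched genes called lower in HCC70 (42.9%, ANKRD1, CCN2 and YAP1), and in 3836 of 27305 promoters overall (14.05%). Over all 12 matched genes of the list, whichever way they differed, the same 3 (25%) held them. The list was drawn up as YAP and TEAD targets, so a share above that of all promoters may be built in. None of the 27 matched epithelial promoters held them. The 2 target promoters with matches are printed because their genes had the largest differences of the list, each as the 250 bases before the start in RefSeq (GRCh38.p14), with matches in capitals. CCN2 has 3 of them and ANKRD1 has 2.
CCN2 (chr6:131951373-131951622, - strand): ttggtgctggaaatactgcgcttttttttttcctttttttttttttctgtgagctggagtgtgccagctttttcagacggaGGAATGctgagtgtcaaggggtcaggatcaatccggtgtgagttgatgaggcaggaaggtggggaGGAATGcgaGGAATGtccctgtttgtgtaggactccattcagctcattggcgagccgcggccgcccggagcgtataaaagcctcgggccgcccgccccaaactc
ANKRD1 (chr10:90921088-90921337, - strand): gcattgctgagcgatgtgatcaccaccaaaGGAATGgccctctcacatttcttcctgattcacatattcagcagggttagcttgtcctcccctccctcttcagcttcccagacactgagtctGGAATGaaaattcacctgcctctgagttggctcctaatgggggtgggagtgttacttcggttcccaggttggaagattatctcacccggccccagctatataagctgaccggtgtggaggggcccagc

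Secreted defence proteins of glandular and airway epithelium were mostly higher in HCC70, with 13 of 18 measured genes higher, 1 lower and 4 not called (median 1.39), with 2 lower under quantile normalization or without the second MDA-MB-231 array. Apart from SLPI and CEACAM6, ceruloplasmin (CP), the copper-carrying ferroxidase, measured 9.995, 10.05 and 9.95 on the HCC70 arrays and 3.89, 4.24 and 4.36 on the MDA-MB-231 arrays, at least 57.2-fold higher, and the mucosal chemokine CXCL17 measured 10.95, 10.86 and 10.93 on the HCC70 arrays and 5.34, 5.32 and 6.22 on the MDA-MB-231 arrays, 39.1-fold higher. SAA1, an acute phase protein, was the lower one at -1.23 ± 0.08 (adjusted p = 6.9e-08). Of 18 inflammatory cytokines and NF-kB targets, 6 were higher, 6 were lower and 6 were not called. CXCL16, a membrane-bound chemokine, measured 9.96, 10.04 and 10.18 on the HCC70 arrays and 6.08, 6.24 and 5.75 on the MDA-MB-231 arrays, 16.4-fold higher in HCC70. CCL28, CCL5 and PTGS2, which encodes cyclooxygenase, were higher by 1.99 ± 0.09, 1.51 ± 0.12 and 1.84 ± 0.19. ICAM1, the leukocyte adhesion ligand, measured 6.53, 6.71 and 6.66 on the HCC70 arrays and 8.72, 8.78 and 8.93 on the MDA-MB-231 arrays, 4.53-fold lower, and the cytokine LIF and the neutrophil chemokine CXCL8 were lower by 2.18 ± 0.16 and 1.36 ± 0.10.

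Interferon-stimulated genes were higher in HCC70 in 11 of 19 cases, lower in 2 and not called in 6 (median 0.43). IFI44L measured 7.98, 7.44 and 7.81 on the HCC70 arrays and 3.56, 3.78 and 3.47 on the MDA-MB-231 arrays, at least 17.6-fold higher, and its neighbour IFI44 measured 9.79, 9.95 and 9.67 on the HCC70 arrays and 5.92, 5.89 and 5.35 on the MDA-MB-231 arrays, 16.9-fold higher. IRF9, the DNA-binding subunit of the interferon-activated complex, differed by 1.42 ± 0.09 (adjusted p = 3.8e-08). The membrane proteins that block virus entry were split, with IFITM1 higher at 2.27 ± 0.12 (adjusted p = 7.1e-09) and IFITM2 lower at -2.20 ± 0.11 (adjusted p = 3.8e-09), and MX2 was lower at -0.79 ± 0.18. Of the genes that present antigen, B2M and TAPBP were analysed here, B2M at 0.72 ± 0.08 (adjusted p = 4.0e-06) and TAPBP at -0.44 ± 0.09 (adjusted p = 7.2e-04). Of 22 S100 proteins and annexins, which bind calcium, 7 were higher and 10 were lower. ANXA9 and S100A14 were 13-fold and 10.5-fold higher, and ANXA6 measured 6.94, 6.88 and 6.94 on the HCC70 arrays and 9.93, 10.12 and 9.77 on the MDA-MB-231 arrays, 8.1-fold lower, followed by ANXA8 at -2.41 ± 0.14.

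In the Wnt list 6 of 25 measured genes were higher, 7 were lower and 12 were not called, shares close to the 23.8% and 23.2% of all genes. DKK1, a secreted Wnt antagonist, measured 5.58, 5.46 and 5.88 on the HCC70 arrays and 10.15, 10.33 and 10.29 on the MDA-MB-231 arrays, 24.6-fold lower in HCC70. The receptors FZD7 and FZD3 were lower by 2.41 ± 0.11 and 1.75 ± 0.17, the co-receptor LRP5 by 1.14 ± 0.10, and FZD4 was higher by 0.96 ± 0.10. In the TGF-beta and BMP list 9 of 21 were higher and 7 were lower. BMP4 measured 7.07, 7.02 and 6.95 on the HCC70 arrays and 11.36, 11.34 and 11.22 on the MDA-MB-231 arrays, 19.6-fold lower. Its extracellular antagonists were lower as well, FST by 3.22 ± 0.10 and NOG by 1.86 ± 0.17, as was the TGF-beta effector SMAD3 by 1.46 ± 0.11. LTBP1, which stores TGF-beta in the matrix, and SKIL, a repressor of SMAD proteins, were higher by 2.12 ± 0.10 and 2.12 ± 0.10.

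The Notch list had 8 of 19 genes higher in HCC70, 5 lower and 6 not called. Receptors were called in both directions. NOTCH3 measured 9.60, 9.36 and 9.64 on the HCC70 arrays and 5.69, 5.65 and 6.38 on the MDA-MB-231 arrays, 12.4-fold higher, and JAG2, a ligand, differed by 1.39 ± 0.11 (adjusted p = 2.8e-07). Of the targets, HEY2 measured 9.43, 9.62 and 9.50 on the HCC70 arrays and 4.69, 4.85 and 5.34 on the MDA-MB-231 arrays, 23.5-fold higher, and NRARP differed by 2.68 ± 0.21 (adjusted p = 2.4e-07). Among the lower ones were the fringe enzymes LFNG and RFNG at -0.83 ± 0.13 and -0.52 ± 0.09 and NOTCH2 at -0.34 ± 0.08. HOX genes, which mark position along the body axis, were higher in HCC70 in 13 of 27 cases, lower in 2 and not called in 12, with 4 lower when only the 6 vehicle arrays were fitted. HOXC13, HOXC4, HOXB5 and HOXB3 differed by 2.75 ± 0.15, 1.37 ± 0.08, 2.38 ± 0.15 and 1.40 ± 0.10, and HOXB9 was lower at -1.28 ± 0.17 (adjusted p = 2.3e-05).

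**Figure D3:**
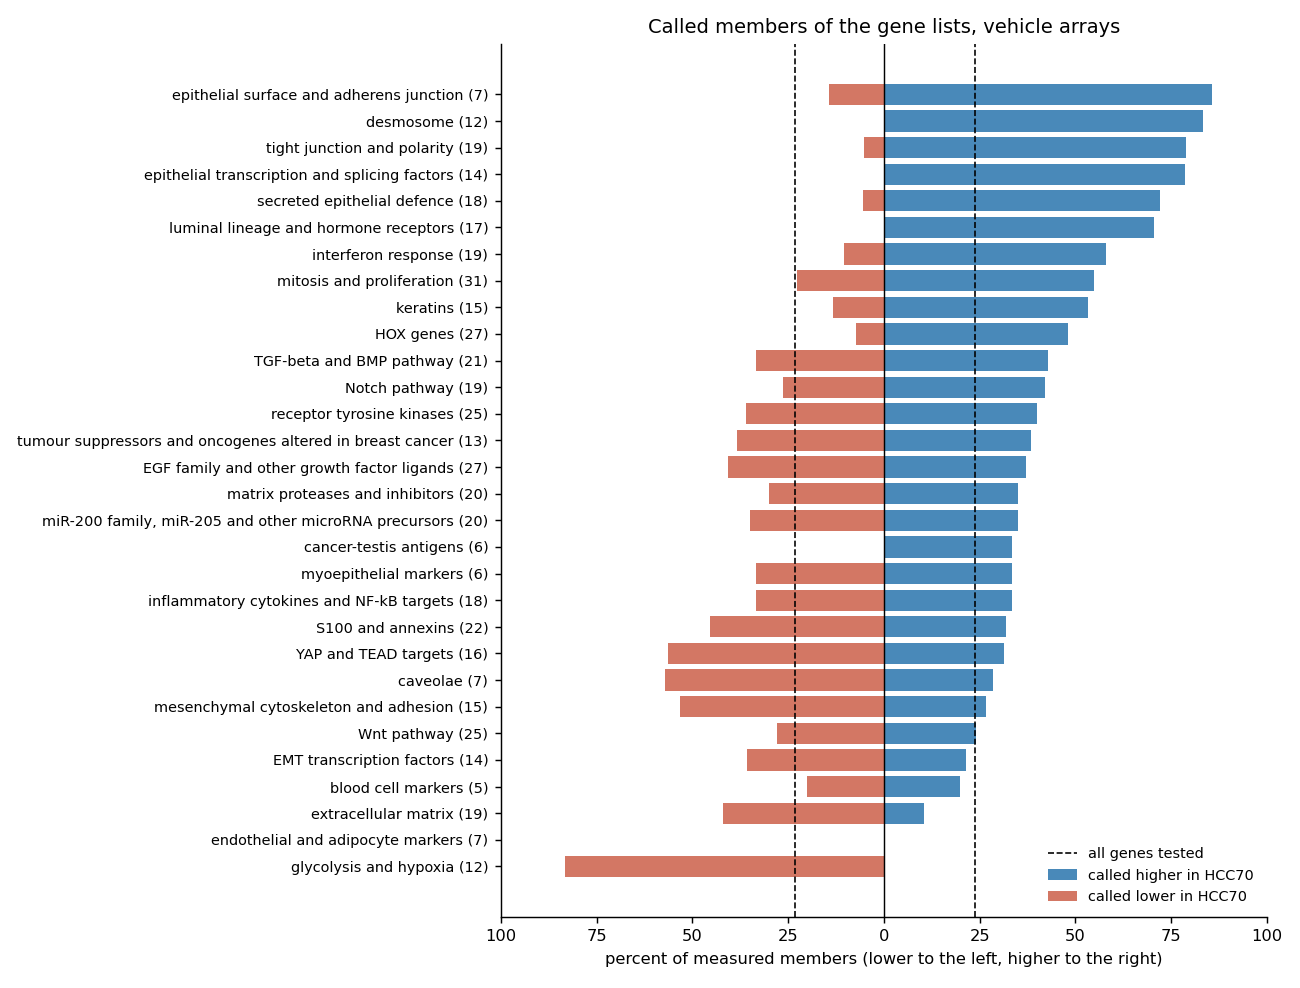
Percent of the measured members of each gene list (number in brackets, lists with 5 or more) that were called lower in HCC70, drawn to the left of 0, or higher, drawn to the right. Dashed lines mark the share of all genes tested, 23.2% lower and 23.8% higher. The junction and epithelial regulator lists extend beyond the line on the right, and glycolysis and hypoxia extends on the left. Other lists cross a line too, among them secreted defence, luminal and HOX genes on the right and caveolae and YAP targets on the left.

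Tumour suppressors and oncogenes that are often altered in breast cancer were called higher in 5 of 13 cases and lower in 5. CDKN2A, which encodes the INK4A and ARF proteins, measured 8.06, 8.15 and 8.02 on the HCC70 arrays and 4.10, 4.95 and 4.73 on the MDA-MB-231 arrays, at least 11.2-fold higher in HCC70. MTAP, a methionine salvage enzyme encoded beside it, measured 8.85, 8.73 and 8.67 on the HCC70 arrays and 4.71, 4.63 and 4.25 on the MDA-MB-231 arrays, at least 18.6-fold higher. Both MDA-MB-231 means lay below the lower quartile. Cyclin E1 (CCNE1) was higher by 0.90 ± 0.15, and MYC, CDK6 and CCND3 were lower by 1.26 ± 0.10, 0.84 ± 0.09 and 0.41 ± 0.10.

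Because CDKN2A and MTAP lie side by side, the 8 nearest genes tested on each side of CDKN2A in the RefSeq gene order were also read, a set chosen after the values had been seen. Of the 17 genes, 13 were higher in HCC70, none was lower and 4 were not called. CDKN2A and MTAP themselves prompted the choice, and of the other 15 genes 11 were higher, against 23.8% of all genes. CDKN2B-AS1, the long noncoding RNA next to CDKN2A, measured 8.43, 8.44 and 8.50 on the HCC70 arrays and 3.83, 4.14 and 4.02 on the MDA-MB-231 arrays, and MIR31HG, the host of MIR31, measured 8.27, 8.42 and 8.28 on the HCC70 arrays and 3.51, 3.18 and 3.40 on the MDA-MB-231 arrays. HACD4 was at least 17.5-fold higher and KLHL9 12.1-fold higher. Other neighbours differed less: FOCAD by 2.08 ± 0.15, MIR31 by 1.02 ± 0.19, CDKN2A-AS1 by 0.66 ± 0.18, DMRTA1 by 0.76 ± 0.14, CAAP1 by 0.44 ± 0.12 and PLAA by 1.28 ± 0.11. TUSC1 differed by 0.45 ± 0.15, a call lost under 3 alternatives, and MIR491, LINC01239, IFT74 and LRRC19 did not pass the test. MDA-MB-231 signals of 3.56, 4.21 and 4.03 for HACD4 and 4.71, 4.63 and 4.25 for MTAP lay below the lower quartile of the group, whereas FOCAD at 6.17, 6.14 and 6.06 and PLAA at 8.96, 8.86 and 8.64 were not. Genes of this region are often lost together in tumours, and DNA copy number was not measured here.

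Proliferation genes showed a modest imbalance in vehicle. Of 31 measured genes of mitosis and DNA replication, 17 were higher in HCC70, 7 were lower and 7 were not called (median 0.28), and 4 of the 17 but none of the 7 differed by at least 1. MYBL2, the B-MYB factor of S phase, measured 10.91, 10.89 and 10.98 on the HCC70 arrays and 8.33, 8.30 and 7.96 on the MDA-MB-231 arrays, 6.63-fold higher, and the proliferation antigen MKI67 measured 11.41, 11.26 and 11.37 on the HCC70 arrays and 10.40, 10.43 and 10.20 on the MDA-MB-231 arrays, 2.0-fold higher. HMMR and PCNA differed by 1.46 ± 0.10 and 1.16 ± 0.08. The mitotic kinase genes BUB1 and AURKA, the cyclin CCNB1 and topoisomerase TOP2A went the other way, at -0.79 ± 0.08, -0.78 ± 0.10, -0.63 ± 0.10 and -0.73 ± 0.08. Growth rates were not recorded in the labels.

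In the glycolysis and hypoxia list, 10 of 12 measured genes were lower in HCC70, none was higher and 2 were not called (median -1.0). LDHB, a lactate dehydrogenase subunit, measured 4.87, 4.91 and 4.94 on the HCC70 arrays and 8.69, 8.62 and 8.40 on the MDA-MB-231 arrays, 12.7-fold lower, and LDHA differed by -2.21 ± 0.12 (adjusted p = 5.4e-09). BNIP3, a mitophagy receptor induced by hypoxia, measured 6.63, 6.90 and 6.60 on the HCC70 arrays and 10.32, 10.30 and 10.25 on the MDA-MB-231 arrays, 11.9-fold lower. NDRG1, another gene that hypoxia induces, differed by -2.37 ± 0.08 (adjusted p = 1.8e-10).

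MicroRNA genes differed between the lines at several loci. The probes read the precursor or primary transcript, not the mature microRNA. The mature forms are printed to show which genes share a seed, the stretch that pairs with target messages (bases 2 to 8, in capitals), as RefSeq gives them. The first set has the higher precursor signal in MDA-MB-231, and MIR221 and MIR222, neighbours on the X chromosome (chrX:45746180-45746202 (-) and chrX:45747036-45747056 (-) in GRCh38.p14), share a seed. The host gene of the next 3, MIR100HG on chromosome 11, gives rise to miR-100, let-7a and miR-125b (chr11:122152275-122152296 (-), chr11:122146568-122146589 (-) and chr11:122099809-122099830 (-)).
hsa-miR-221-3p: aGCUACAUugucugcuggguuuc
hsa-miR-222-3p: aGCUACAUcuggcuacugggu
hsa-miR-100-5p: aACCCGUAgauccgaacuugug
hsa-let-7a-5p: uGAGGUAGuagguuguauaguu
hsa-miR-125b-5p: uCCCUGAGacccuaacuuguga
The miR-200 family, which targets ZEB1 and ZEB2, has 2 seeds that differ in 1 base, and miR-205 is an epithelial microRNA with another seed. These had the higher precursor signal in HCC70 or did not pass the test.
hsa-miR-200b-3p: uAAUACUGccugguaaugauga
hsa-miR-200c-3p: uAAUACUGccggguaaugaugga
hsa-miR-429: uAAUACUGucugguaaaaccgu
hsa-miR-200a-3p: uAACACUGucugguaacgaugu
hsa-miR-141-3p: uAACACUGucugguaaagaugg
hsa-miR-205-5p: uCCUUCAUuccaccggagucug

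MIR221 measured 5.77, 5.81 and 5.52 on the HCC70 arrays and 10.38, 10.54 and 10.51 on the MDA-MB-231 arrays, 27.5-fold lower in HCC70 (adjusted p = 3.4e-10), and MIR222 measured 5.32, 5.45 and 5.33 on the HCC70 arrays and 9.003, 8.59 and 8.16 on the MDA-MB-231 arrays, 9.32-fold lower. These precursors of 1 seed family thus differed in the same direction. MIR100 and its host MIR100HG differed by -3.44 ± 0.16 (adjusted p = 1.8e-09) and -1.57 ± 0.13 (adjusted p = 2.8e-07). The other members of that cluster were named after their values had been seen: MIRLET7A2 measured 2.36, 2.53 and 2.67 on the HCC70 arrays and 6.33, 6.76 and 7.09 on the MDA-MB-231 arrays, at least 18.4-fold lower, and MIR125B1 was 3.64-fold lower. MIR205 measured 6.86, 6.91 and 6.82 on the HCC70 arrays and 3.66, 3.78 and 4.17 on the MDA-MB-231 arrays, at least 7.96-fold higher in HCC70. MIR200A and MIR429, which lie in 1 cluster on chromosome 1, differed by only 0.76 ± 0.14 (adjusted p = 4.9e-04) and 0.75 ± 0.14 (adjusted p = 4.5e-04). The remaining family members were named to complete the 2 seeds. MIR200C differed by 1.10 ± 0.33 (adjusted p = 0.015), MIR200B by 0.40 ± 0.15 (adjusted p = 0.04), a call lost under 5 alternatives, and MIR141 by 0.40 ± 0.18 (adjusted p = 0.1). MIR429, MIR200C and MIR141 lay below the lower quartile in both lines, so the array gives little room to measure them. In the whole list 7 of 20 genes were higher, 7 were lower and 6 were not called. Over all 1072 microRNA genes on the array 98 were higher and 119 were lower, shares below the 23.8% and 23.2% of all genes. Of the 1072, 591 lay below the lower quartile in both lines.

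**Figure D4:**
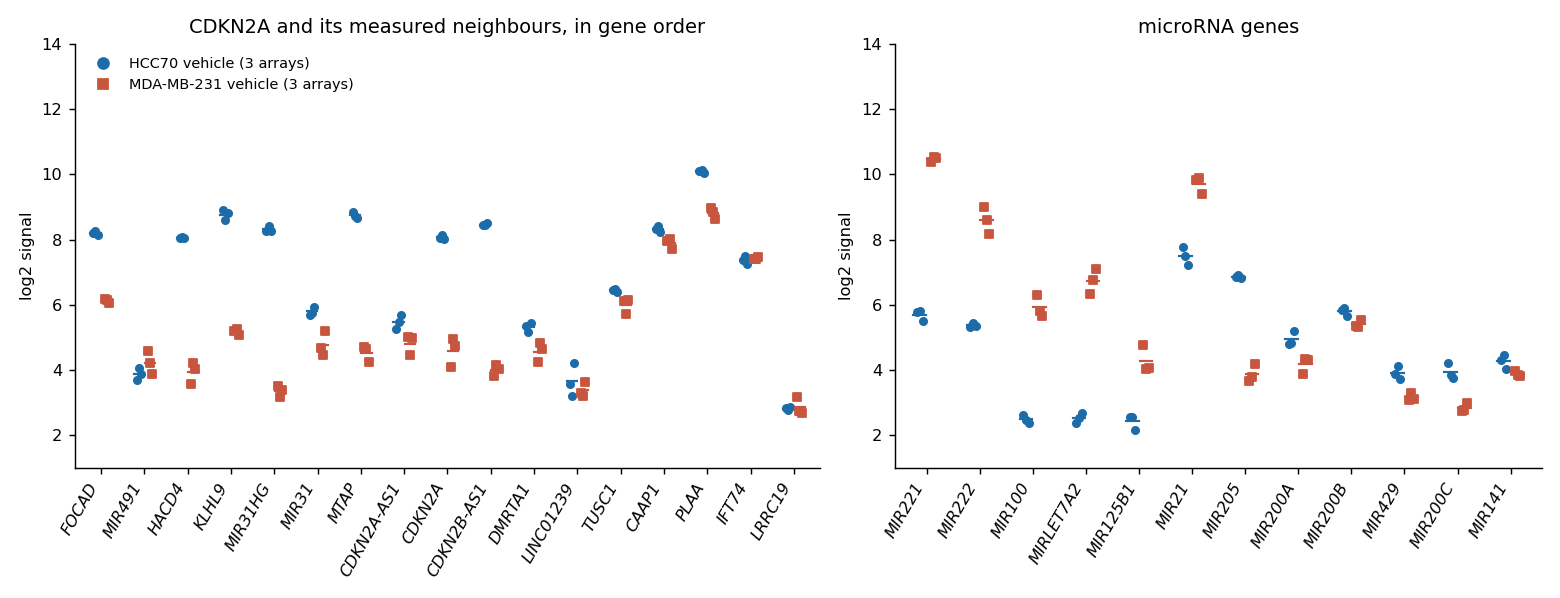
Log2 signal (y axis) on each vehicle array, with circles for 3 HCC70 arrays, squares for 3 MDA-MB-231 arrays and a line at each mean, for CDKN2A with the genes tested around it in RefSeq order (left) and for microRNA genes (right). On the left the HCC70 arrays of HACD4, KLHL9, MIR31HG, MTAP, CDKN2A and CDKN2B-AS1 lie above 8 and the MDA-MB-231 arrays below 5.3. On the right MIR221, MIR222, MIR100, MIRLET7A2, MIR125B1 and MIR21 are lower in HCC70.

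Markers of other cell types did not move together. Of 5 measured blood cell markers, 1 was higher, 1 was lower and 3 were not called. These counts are near the 23.8% higher and 23.2% lower of all genes. CD14, the endotoxin co-receptor of monocytes, measured 8.46, 8.67 and 8.43 on the HCC70 arrays and 5.72, 5.71 and 5.73 on the MDA-MB-231 arrays, and LAPTM5, a lysosomal protein of blood cells, measured 5.43, 5.06 and 5.08 on the HCC70 arrays and 9.56, 9.36 and 9.13 on the MDA-MB-231 arrays. SPI1, the master regulator of myeloid cells, CSF1R and NKG7 did not pass the test at 0.14 ± 0.16, -0.27 ± 0.14 and 0.05 ± 0.12. None of 7 endothelial and adipocyte markers was called, though 3 were higher without the third MDA-MB-231 array and 1 was lower without the second. Of 6 measured myoepithelial markers, KRT5 and KRT14 were higher, and MYLK and OXTR were lower at -2.41 ± 0.11 and -0.79 ± 0.16.

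The same 2 lines after 72 hours with 500 nM JQ1 gave a second set of arrays in which the line difference could be read. The means share no array with the first set. Both settings were tested in 1 fit with a common spread for each gene, so their calls are not independent. Under JQ1, 6894 genes (46.3%) were called, 3645 higher in HCC70 (24.5%) and 3249 lower (21.8%). Of the 7000 genes called in vehicle, 2740 were higher in both settings and 2539 were lower in both, which is 75.4% of the vehicle calls and 76.6% of the JQ1 calls, and 50 and 116 changed direction. Of the 2204 genes with a vehicle difference of at least 1, 2063 (93.6%) were called in the same direction under JQ1 and 8 in the opposite direction. Across genes, which are not independent, the 2 sets of differences correlated at 0.870.

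A test of the difference between the line differences, over all 12 arrays, called 2228 genes, 1342 (9.02%) with a more positive value under JQ1 and 886 (5.95%) with a more negative one. Among the 2204 large vehicle differences it called 821 (37.3%), and both counts use the vehicle arrays. In size, 1095 of the 2228 line differences were smaller under JQ1 and 1133 were larger. Several identity genes had a change that did not pass the test. SLPI differed between the lines by 8.25 in vehicle and 8.58 under JQ1 (adjusted p of the change = 0.4), ESRP1 by 6.52 and 6.21 (0.24), GRHL2 by 5.18 and 4.95 (0.34), AXL by -6.86 and -6.71 (0.63) and MIR221 by -4.78 and -4.93 (0.78). Others widened: EPCAM went from 2.90 to 4.90 (adjusted p = 9.9e-06), VIM from -3.29 to -5.15 (6.9e-06) and FN1 from -2.40 to -4.12 (3.7e-06). KIT narrowed from 4.73 to 1.33 (6.4e-06), and TNC from 3.23 to 0.77 (9.3e-07).

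Proliferation genes passed this test in every measured case, against 9.02% of all genes with a change in that direction. All 31 were higher in HCC70 under JQ1, against 17 in vehicle, and the change was called for 31 of 31. MKI67 differed by 1.0 in vehicle and 2.55 under JQ1 (adjusted p of the change = 5.7e-06), MYBL2 by 2.73 and 4.35 (9.5e-06), and TOP2A changed sign from -0.73 to 0.90 (2.4e-06). For MKI67, MYBL2 and TOP2A the mean signal was lower under JQ1 in both lines, with the larger drop in MDA-MB-231. MKI67 went from 11.34 to 10.68 in HCC70 and from 10.34 to 8.13 in MDA-MB-231. TOP2A went from 10.85 to 10.20 and from 11.58 to 9.29. The desmosomal cadherins DSC2 and DSC3 still differed by 6.12 and 5.43 under JQ1.

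**Figure D5:**
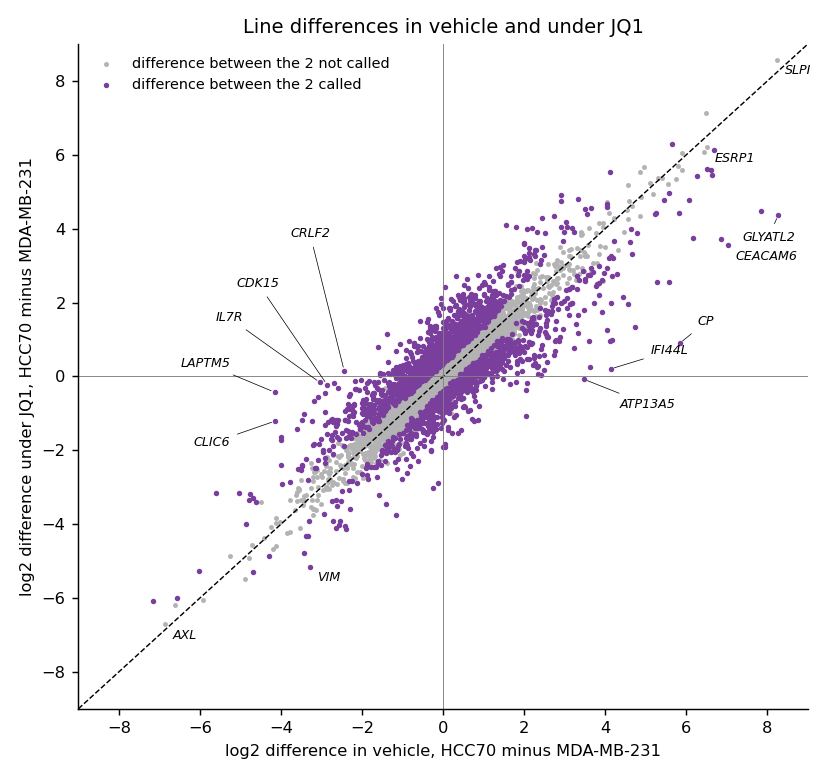
Log2 difference between the lines, HCC70 minus MDA-MB-231, in vehicle (x axis) and under JQ1 (y axis) for the 14884 genes, with a dashed line where both are equal. Purple points are the 2228 genes whose change between the settings was called, and grey points are the others. AXL, ESRP1 and SLPI lie near the line, and CP, IFI44L and LAPTM5 lie far from it.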

How the data were processed

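The 12 arrays (Human Gene 2.0 ST) fall into 4 groups of 3, vehicle or JQ1 in each line. The values are log2 signals of transcript clusters as the authors deposited them. The submitters' processing notes name RMA, oligo and limma, without versions. For the build, nothing was given in the sources used here. Of 53617 clusters, 16098 had 1 gene symbol in the platform annotation, 0 had several and 37519 had none. The brightest cluster, by its mean signal, was kept for the 779 genes with more than 1, which left 14884 genes with no filter on dim signals. No column of another series was present.

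Group means of all 12 arrays were fitted by limma's lmFit and eBayes, version 3.58.1 under R 4.3.3 (8 residual and 4.33 prior degrees of freedom), and p-values are two-sided. The procedure was tested on simulated data. Named genes were the 15 largest called differences in each direction with no overlap of arrays, up to 4 members of each list and direction with the smallest p, 31 fixed readouts (23 measured) and the 5 largest changes in each direction between the vehicle and JQ1 line differences. The genes, the 33 lists (32 with measured members) and the rule were chosen with earlier results of these data known. The ERK and the meiotic and piRNA lists, the genes around CDKN2A, the other microRNAs of printed families and clusters, CRB3, GAS6 and YAP1 were added after their values had been seen.

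Each count was recomputed with array medians centred, with quantile normalization, with array weights and with a robust variance trend. Others used the 6 vehicle arrays only, a replicate block, only genes brighter than the median, all clusters or their mean per gene, or a log2 size of at least 1. Arrays were also left out 1 at a time, and the 3 arrays numbered 3 that stood apart were left out together. Promoter and microRNA sequences come from RefSeq (GRCh38.p14).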

Additional observations from a re-analysis of the deposited data

Results flagged for a closer look

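The line difference changed between vehicle and JQ1, by limma's test of the difference between the line differences over 12 arrays, in the genes given here, which are the 5 most negative and the 5 most positive changes among those called. Groups of 3 arrays were too small for a test of single outlying arrays.

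The 5 most negative changes were in genes higher in HCC70 vehicle. CP, the ferroxidase ceruloplasmin, differed between the lines by 5.84 in vehicle and 0.90 under JQ1, a change of -4.94 (adjusted p = 1.5e-07). IFI44L, an interferon-stimulated gene, went from 4.14 to 0.20, a change of -3.93 (adjusted p = 1.5e-07). GLYATL2, a glycine N-acyltransferase, went from 8.27 to 4.36, a change of -3.91 (adjusted p = 1.5e-06). ATP13A5, a P5-type transport ATPase, went from 3.47 to -0.08, a change of -3.55 (adjusted p = 8.6e-06). CEACAM6, an adhesion molecule of epithelia, went from 7.04 to 3.55, a change of -3.49 (adjusted p = 4.3e-05).

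The 5 most positive changes were in genes lower in HCC70 vehicle. LAPTM5, a lysosomal membrane protein of blood cells, went from -4.16 to -0.43, a change of 3.73 (adjusted p = 5.0e-07). CLIC6, an intracellular chloride channel protein, went from -4.15 to -1.21, a change of 2.94 (adjusted p = 8.9e-06). IL7R, the interleukin-7 receptor, went from -3.04 to -0.16, a change of 2.88 (adjusted p = 3.5e-06). CDK15, a cyclin-dependent kinase family member, went from -2.86 to -0.23, a change of 2.64 (adjusted p = 7.2e-06). CRLF2, a subunit of the thymic stromal lymphopoietin receptor, went from -2.44 to 0.16, a change of 2.60 (adjusted p = 5.7e-06). All 10 genes thus had a smaller line difference under JQ1 than in vehicle.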

How the results depend on the processing

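With all transcript clusters, a larger set of tests, 15776 were called in vehicle (7326 higher in HCC70, 8450 lower) and 15759 under JQ1 (7580 and 8179), and 1342 changes between the settings were more negative. With a log2 size of at least 1, 2204 genes were called in vehicle (1136 and 1068), 2285 under JQ1 (1292 and 993), and 607 for the change (374 more positive, 233 more negative). Leaving out 1 array gave 6383 to 7100 calls in vehicle, 6362 to 6996 under JQ1 and 1748 to 2376 for the change. Under the other alternatives the vehicle count lay between 5400, with only genes above the median level tested, and 7553, with array weights. None of the 261 named genes reversed its direction where it was recomputed, which left out the fit of all clusters and the size limit, and covered 191 of them among genes above the median level. Calls were lost for 7 of them, KRT18, MIR200B, MIR200C, PGR, TUSC1, TWIST2 and YAP1, and KRT8 and MIR141 gained a call under 2 alternatives each. List counts moved by more than 1.5 times in 60 cases and by less in 1480. Of the 60, 30 were with a log2 size of at least 1 and 17 were among genes above the median level. After removal of group means, same-numbered vehicle arrays of the lines correlated at -0.0353, 0.0654 and 0.0020. Differently numbered ones lay between -0.0700 and 0.0640, so the numbers showed no pairing of vehicle arrays across lines. Pairing of vehicle with JQ1 arrays was not tested this way. A replicate block gave 7241 calls in vehicle. Transcript clusters of 1 gene differed in size for OVOL1 (1.40 and 0.08) and MST1R (0.74 and 0.07). Signals below the lower quartile limit what can be read from dim genes, most of all for microRNA precursors.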

Other observations

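Genes of meiotic chromosomes and of the piRNA pathway, which are normally active in germ cells, included a few large differences between the lines. The list was added after values had been seen, so its counts are a description. Of 46 listed genes 37 were measured, 6 were higher in HCC70, 5 were lower and 26 were not called. Both called shares were below those of all genes (23.8% higher, 23.2% lower), and 25 genes lay below the lower quartile in both lines. Apart from TDRD1, HORMAD1, a protein of the meiotic chromosome axis, measured 9.28, 9.24 and 9.28 on the HCC70 arrays and 3.76, 3.80 and 3.59 on the MDA-MB-231 arrays. That is at least 46.7-fold higher, at 5.55 ± 0.10 (adjusted p = 5.5e-13). SYCP2, a component of the synaptonemal complex, measured 10.63, 10.57 and 10.63 on the HCC70 arrays and 5.05, 5.08 and 4.78 on the MDA-MB-231 arrays, 49.9-fold higher. SMC1B, the meiotic cohesin subunit, was at least 17.2-fold higher (4.10 ± 0.14). In these 3 genes every HCC70 array lay above every MDA-MB-231 array by over 3 units.

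Other members were lower in HCC70. MAEL, a protein of piRNA processing, measured 2.95, 3.47 and 3.51 on the HCC70 arrays and 5.27, 5.65 and 5.46 on the MDA-MB-231 arrays, at least 4.43-fold lower, and PIWIL4, a PIWI protein, was at least 2.20-fold lower (-1.14 ± 0.12). The mismatch repair genes MLH3 and MSH5, which act in meiotic recombination, differed by -0.78 ± 0.11 and -0.57 ± 0.09. Of 6 measured cancer-testis antigens 2 were higher in HCC70, PRAME by 1.97 ± 0.17 and CT83 by 0.83 ± 0.08, and 0 were lower, also at an unadjusted limma p under 0.05.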
